A study of Mus musculus with 4 samples.

Results

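Trpm5 microvillar tuft cells are rare chemosensory epithelial cells of the main olfactory epithelium. They were chosen here by their marker UMIs, and 231 of the 39715 passing barcodes (0.582%) were members. A UMI is a molecular tag that marks 1 captured RNA molecule. A barcode passed with at least 500 detected genes and at most 10% of its UMIs from mitochondrial genes. It was a member with at least 4 UMIs over Trpm5, Pou2f3, Sh2d6 and Avil, at least 2 of these 4 genes detected, at most 15 UMIs of Omp (the olfactory marker protein of mature sensory neurons) and at most 30 UMIs of Cyp2g1 (a cytochrome P450 of sustentacular cells, the supporting cells of the epithelium). The 4 libraries came from wild type C57BL/6J mice at an age of 3 months, with 2 libraries from females and 2 from males. No sample carried a treatment or an altered allele. The epithelium was dissociated with papain, and transcripts were read from their 5′ end in droplets. The labels do not say how many animals a library held, so a spread between libraries may be partly technical.

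Tuft cells, also called brush or microvillar cells in airway and nose, share a signalling cascade with taste cells. A receptor activates a G protein and a phospholipase C, calcium leaves internal stores through inositol trisphosphate receptors, and the cation channel Trpm5 opens. They are known as sources of interleukin 25, cysteinyl leukotrienes and acetylcholine, and the POU domain transcription factor Pou2f3 is required for their formation. In the nose they lie among sustentacular cells and sensory neurons.

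POU domain factors bind an octamer of DNA letters, ATGCAAAT, which reads ATTTGCAT on the other strand. Upstream sequences of 2 genes that were high in the tuft barcodes are shown because they hold this octamer, in capitals. 1810046K07Rik, known elsewhere as Pou2af2, encodes a coactivator of Pou2f3, and Tas2r108 encodes a bitter taste receptor. Sequences are from RefSeq on GRCm38.p6, 5′ to 3′ in the direction of the gene, and end before the annotated gene: chr9:51328919-51329168 on the minus strand for 1810046K07Rik and chr6:40493342-40493528 on the plus strand for Tas2r108.
1810046K07Rik: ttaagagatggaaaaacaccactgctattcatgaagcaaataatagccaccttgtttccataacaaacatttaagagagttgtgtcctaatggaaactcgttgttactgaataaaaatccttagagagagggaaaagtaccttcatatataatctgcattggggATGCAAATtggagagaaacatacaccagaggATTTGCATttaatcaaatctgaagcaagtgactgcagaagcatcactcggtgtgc
Tas2r108: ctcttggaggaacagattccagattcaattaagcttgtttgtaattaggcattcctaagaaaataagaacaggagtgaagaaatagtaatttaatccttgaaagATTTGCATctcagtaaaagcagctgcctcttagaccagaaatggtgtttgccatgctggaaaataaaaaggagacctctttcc
The sequence of 1810046K07Rik holds 2 octamers, in opposite orientations, and that of Tas2r108 holds 1. Over windows from 250 bases before to 50 after each start, searched on both strands, 323 of the 16770 genes of the table with a window held an octamer (1.93%). Among genes at least 4-fold higher in the tuft barcodes of each library, 14 of the 230 with a window held it (6.09%), among them Elf3, Prkcb, Hpgds and Srf. None of the 22 windows found for the 25 genes of largest fold held it. In the identity, transduction, acetylcholine, eicosanoid, cytokine, apical and cytoplasmic signalling lists below, 10 of the 81 genes with a window held the octamer (12.3%). These include Il1rl1, Rgs21 and Sucnr1, which had 0 UMIs in the tuft barcodes. A match is a description of letters and not of binding.

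The libraries held 46, 69, 68 and 48 tuft barcodes in female 1, female 2, male 1 and male 2. These were 0.450% (exact 95% binomial interval 0.330% to 0.5999%), 0.707% (0.550% to 0.894%), 0.704% (0.547% to 0.891%) and 0.477% (0.352% to 0.632%) of the passing barcodes, and the intervals cover counting error only. Female 2 and male 1 were high and female 1 and male 2 were low, so the sexes overlapped. The mean share was 0.578% ± 0.181 (SD, n = 2) in females and 0.590% ± 0.161 (SD, n = 2) in males, and the exact two-sided permutation test gave p = 1, where 2 against 2 cannot go below 0.33. The whole libraries held 100725429 to 111577458 UMIs. A chi-square of their counts, which takes each UMI as an independent draw, lay between 21.8 and 39.5 per gene in every pair of libraries. For the tuft sums it lay between 2.20 and 5.05. No 2 libraries agreed within the noise of independent UMIs. UMIs come grouped in barcodes, so the value does not measure the noise of sampling cells. Pairs of libraries shared 126 to 149 barcode sequences, none of them a tuft barcode in both.

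Tuft barcodes, as chosen by the rule, were shallower than the rest. Their median depth was 5243.5, 4733, 4367 and 4299 UMIs in the 4 libraries, against 8652 to 9510 UMIs for the other barcodes. Members had a median of 11 marker UMIs (4 to 47), with 84 barcodes showing all 4 markers, 120 showing 3 and 27 showing 2. At the edge of the rule, 12 members had exactly 4 marker UMIs and 11 barcodes that met every other condition had 3. The limits on Omp and Cyp2g1 turned away many more, since 227 further barcodes met the marker part of the rule and exceeded a limit, 195 on Cyp2g1, 96 on Omp and 64 on both. Their median depth was 20970 UMIs, so the low depth of the members depends in part on the limits. A high doublet score, from simulated pairs of barcodes, was seen in 64 of these 227 and in 5 of the 231 members. By its setting, the score called 7.73% to 8.18% of all passing barcodes high in each library.

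**Figure D1:**
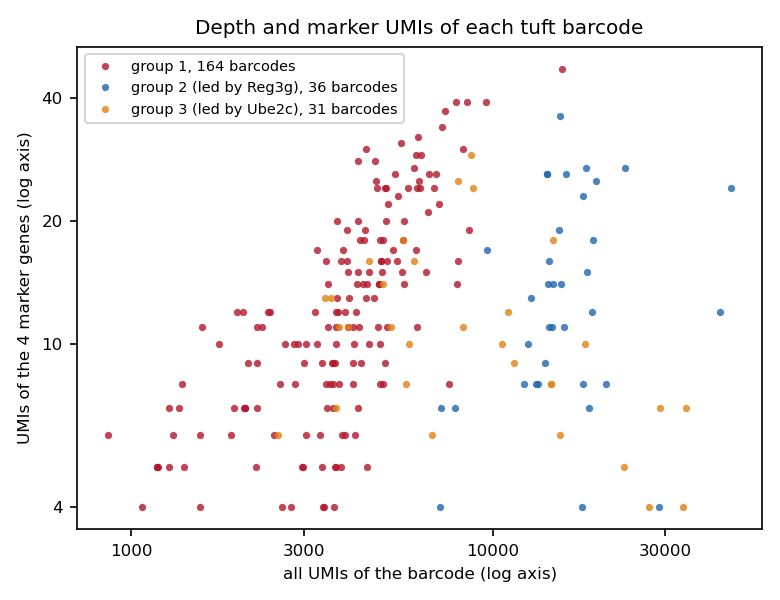
Each point is 1 of the 231 tuft barcodes, with its total UMIs on the x axis and its UMIs of Trpm5, Pou2f3, Sh2d6 and Avil on the y axis (both log axes), coloured by the 3 groups found among the members. Group 2 lies at high depth (median 15359.5 UMIs) with marker counts like those of group 1 (median 12.5 against 11.5 marker UMIs).

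The rule genes themselves describe how the members were chosen and carry no test. Levels are CPM, the summed tuft UMIs of a gene in a library scaled to a total of 1000000, and folds compare them with all other passing barcodes of the same library. Trpm5 (chr7:143069153-143094642, minus strand, GENCODE M21 on GRCm38) stood at 657, 817, 843 and 623 CPM in female 1, female 2, male 1 and male 2, against 2.99 to 4.32 CPM in the other barcodes. Pou2f3 (chr9:43123939-43210369, minus strand) stood at 70.8, 78.4, 102 and 71.0 CPM against 2.73 to 3.12 CPM. Both genes were higher in the tuft sum of all 4 libraries without overlap. Sh2d6, an SH2 domain protein, had 483 ± 72.7 CPM (SD, n = 4), and Avil, the actin-binding protein advillin, had 594 ± 115 CPM (SD, n = 4). A UMI of Trpm5 was seen in 98.7% of members, in 1.17% of 256 ionocyte-like barcodes (at least 4 UMIs over Foxi1, Ascl3 and Cftr), in 2.48% of 6240 sustentacular barcodes (Cyp2g1 over 30) and in 0.771% of 17896 mature neuron barcodes (Omp over 15). After each barcode was thinned to 2000 UMIs, which left out 18, 3, 47 and 46 shallower barcodes, these shares were 77.0%, 0%, 0.888% and 0.213%. Median depths of the 4 classes were 4755, 6531.5, 14093 and 8634 UMIs. The ionocyte-like and sustentacular classes were also limited to at most 15 UMIs of Omp. The ionocyte-like and mature neuron classes were also limited to at most 30 UMIs of Cyp2g1. The sustentacular and neuron classes keep those of the 227 barcodes that exceeded only the Cyp2g1 or only the Omp limit.

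Across all genes, 289 of the 9080 with at least 3 UMIs in the tuft sum of each library were at least 4-fold higher than in the other barcodes in every library (3.18%). At least 4-fold lower in every library were 493 of 9822 genes with at least 10 CPM in the others (5.02%). These counts belong to the contrast that the rule used and are given as a description. The shares of 3.18% and 5.02% stand beside the counts of the lists below. A listed gene with fewer than 3 UMIs in the tuft sum of a library could not count as higher. With other barcodes under the same limits on Omp and Cyp2g1 as the reference, 180 genes were higher, 173 of them among the 289, and 380 were lower, 176 of them among the 493. The other barcodes include the 227 that met the marker part of the rule, and leaving these out of the reference raised the median log2 fold (of CPM + 1) of all 25 genes of largest fold, by 0.25 to 1.59. It went from 7.32 to 8.79 for Trpm5, from 7.59 to 9.17 for Lrmp and from 7.02 to 8.61 for Il25, so the folds below are smaller than against a reference without those barcodes. The 25 genes of largest fold included, beside members of the lists below, Lrmp (an endoplasmic reticulum membrane protein), the dopamine receptor Drd4, the adhesion receptor Adgrg6, the cadherins Pcdh20 and Cdh6, and Pik3cg (the gamma catalytic subunit of phosphoinositide 3-kinase). Lrmp had 1575, 1415, 1318 and 1251 CPM in the 4 tuft sums against 5.2 to 6.91 CPM in the others, 205 to 257-fold. Drd4 had 221 ± 19.0 CPM (SD, n = 4), 168 to 266-fold above the others. The 5 lowest genes were the neuronal genes Omp, Cartpt, S100a5, Nrn1l and Kirrel2. Omp, a rule gene, stood at 193 ± 42.6 CPM (SD, n = 4) in tuft sums. It stood at 154 ± 3.52 CPM in sustentacular, 168 ± 17.6 CPM in ionocyte-like and 8357 ± 302 CPM in mature neuron sums. Each of these classes was gated on Omp, so these levels describe the choice.

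**Figure D2:**
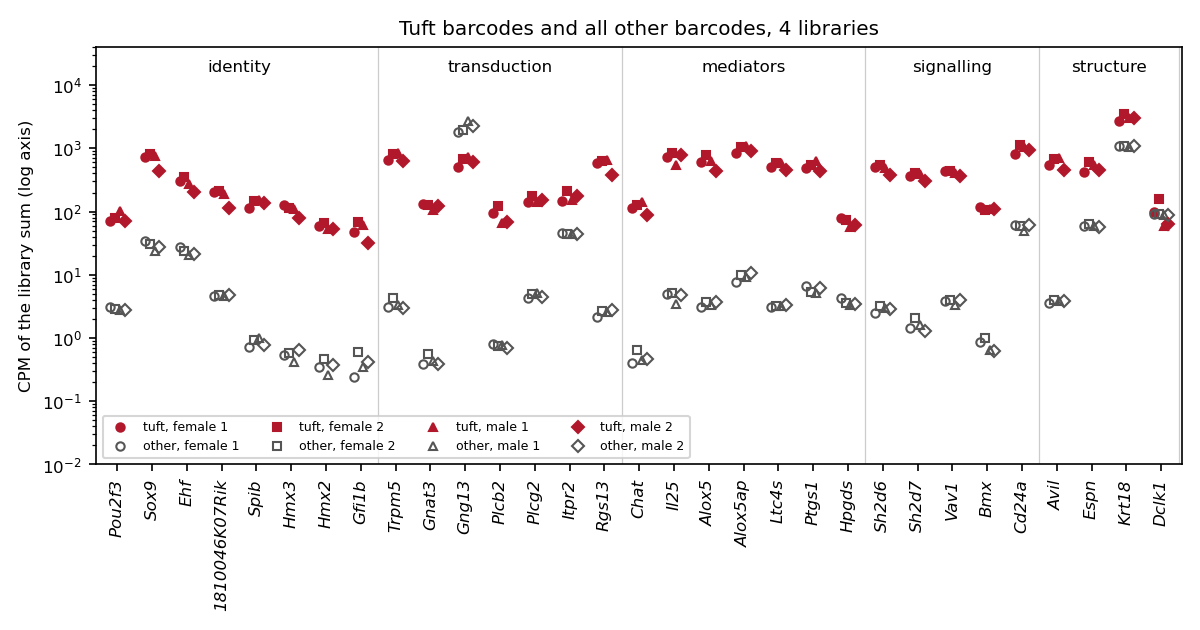
Points give CPM (log axis) of 31 genes in the summed tuft barcodes (filled, red) and in all other passing barcodes (open, grey) of each library, in 5 blocks by role. For Trpm5 the tuft sums lie at 623 to 843 and the others at 2.99 to 4.32, while Gng13 is lower in the tuft sums (513 to 739 against 1786 to 2663) and Dclk1 overlaps.

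Of the transcription factors linked to tuft cell identity, 12 of 13 listed genes were in the table and 8 outside the rule were at least 4-fold higher in every library. The median fold over the list was 33.6. Sox9, a factor of many epithelial progenitors, had 738, 802, 757 and 442 CPM against 24.0 to 34.7 CPM in the others, lowest in male 2. The coactivator 1810046K07Rik had 207, 210.5, 191 and 113 CPM against 4.55 to 4.71 CPM, again lowest in male 2. The tuft sum of male 2 had 380492 UMIs, among them barcodes of 45700 and 42531 UMIs. The part of these deep barcodes in the lower values was not tested. The homeobox genes Hmx2 and Hmx3, neighbours on chromosome 7, had 57.0 ± 5.95 and 107 ± 20.0 CPM (SD, n = 4), and each stayed under 1 CPM in the other barcodes. Spib, an ETS factor, had 138 ± 17.2 CPM and Gfi1b, a zinc finger repressor, 52.0 ± 15.8 CPM (SD, n = 4). Ehf and Ascl2 were also higher. Runx1 and Tcf7l2 did not reach the fold, with median folds of 2.63 and 1.51.

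The taste-like transduction list had 5 genes outside the rule at least 4-fold higher and 1 lower, Gnb1, among 19 in the table. Gnat3, the gustducin alpha subunit, had 131, 128, 105 and 121 CPM against 0.390 to 0.551 CPM, or 232 to 337-fold. Plcb2, the phospholipase of taste cells, had 93.6, 121, 65.9 and 68.3 CPM against 0.690 to 0.817 CPM. Rgs13, a regulator of G protein signalling, had 582, 640, 650 and 378 CPM against 2.16 to 2.73 CPM. Of these, Rgs13 was lowest in male 2 and Plcb2 lower in both males. The part of the deep barcodes of male 2 was not tested here either. Plcg2, a second type of phospholipase C, was 27.7 to 36.6-fold higher, yet its tuft level of 153 ± 18.0 CPM lay below the 295 ± 51.1 CPM of ionocyte-like sums (SD, n = 4).

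The receptors of calcium release differed in level. Itpr2 had 171 ± 31.4 CPM in tuft sums against 44.2 to 45.0 CPM in the others, 3.20 to 4.77-fold. Itpr3, the form used by taste cells, had 20 UMIs in all and 11.9 ± 7.26 CPM in tuft sums against 240 ± 34.1 CPM in ionocyte-like sums. Gng13, the gamma subunit that partners gustducin, had 633 ± 96.4 CPM in tuft sums, above the 140 ± 24.6 CPM of sustentacular and 136 ± 3.09 CPM of ionocyte-like sums and below the 4431 ± 738 CPM of mature neurons (SD, n = 4). Gnb1 was 405 ± 29.8 CPM in tuft sums and 3374 ± 94.3 CPM in mature neurons, and Gnb3 had only 4 UMIs.

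Receptors at the start of the cascade were sparse. Tas1r3, a subunit shared by sweet and umami receptors, had 22 UMIs, while Tas1r1, Tas1r2, Sucnr1 (the succinate receptor of intestinal tuft cells), Ffar3 and Vmn2r26 had 0, as did the regulator Rgs21. For each of these a count of 0 over 231 barcodes allows up to 1.30% of barcodes with a UMI. Of the 35 Tas2r genes measured, 3 had any UMI, and only Tas2r108 reached 3 UMIs in each library. It had 13, 13, 9 and 4 UMIs in female 1, female 2, male 1 and male 2, in 22 barcodes (9.52%), with 8 UMIs in the highest barcode. Its share was 0.176% in sustentacular and 0.0726% in mature neuron barcodes. After thinning the tuft share was 2.35%. Gnat3 was detected in 9 of the 22 barcodes with Tas2r108 (40.9%) and in 42.6% of the other members.

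Among effector genes, Il25 (chr14:54932695-54935837, plus strand) encodes the cytokine interleukin 25. It had 738, 858, 541 and 796 CPM against 3.41 to 5.15 CPM in the others, 148 to 166-fold. Of the 159 members with a UMI of Il25, 140 also held Ltc4s, which was held by 194 of all 231 members (84.0%). The Il25 receptor subunit Il17rb had 155 ± 18.6 CPM (SD, n = 4), 135 to 205-fold above the others. Il13ra1, a subunit of the interleukin 13 receptor, was 9.78 to 11.8-fold higher and Cd300lf also passed the fold. Il4ra had a median fold of 3.18. Il33, an alarmin, had 106 ± 26.5 CPM in tuft sums, below the 665 ± 33.6 CPM of sustentacular sums. After thinning, a UMI of Il33 was seen in 7.04% of members and 67.4% of sustentacular barcodes. It was seen in 4.74% of ionocyte-like and 1.83% of mature neuron barcodes. Tslp, Il1rl1 and Ccl9 had 0 UMIs. In all, 4 of the 12 cytokine genes passed the fold, and none was at least 4-fold lower than in the other barcodes.

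The eicosanoid list had 7 of 14 genes at least 4-fold higher, which cover release of arachidonic acid and its conversion to leukotriene C4 and to prostaglandin D2. Alox5ap, the activating protein of 5-lipoxygenase, had 855, 1046, 1100.3 and 901 CPM against 7.62 to 10.5 CPM. Alox5, the lipoxygenase, had 607, 775, 623 and 434 CPM against 3.04 to 3.77 CPM. Ltc4s, which makes leukotriene C4, had 508, 575, 593 and 455 CPM against 3.14 to 3.37 CPM. None of the 3 genes overlapped with the other barcodes in any library. Ptgs1, Pla2g4a and Hpgds, which act in prostaglandin D2 synthesis or supply its substrate, were 69.9 to 124, 57.6 to 123 and 16.9 to 20.3-fold higher, and the inducible Ptgs2 was 9.70 to 19.9-fold higher. Lta4h, the enzyme of the leukotriene B4 branch, had a median fold of 0.731, Ptges (prostaglandin E2) had 11 UMIs and Tbxas1 (thromboxane) had 0.

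For acetylcholine, Chat, the synthesising enzyme, had 114, 128, 143 and 89.4 CPM against 0.409 to 0.648 CPM in the other barcodes, 190 to 323-fold. The vesicular transporter Slc18a3 had 1 UMI in all and the choline transporter Slc5a7 had 0. Chat was detected in 53.7% of members and in 1.17% of sustentacular barcodes, or 28.2% and 0.291% after thinning.

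Of 19 listed cytoplasmic signalling genes, 12 passed the fold outside the rule. They include proteins better known from blood cells, such as the exchange factor Vav1 with 430, 432, 414 and 365 CPM against 3.28 to 4.02 CPM, and the kinase Bmx with 119, 105, 111 and 110 CPM against 0.620 to 0.986 CPM. Inpp5d, an inositol phosphatase, was 36.6 to 52.6-fold higher. Cd79b, listed among B cell markers, had 66 UMIs in 48 members (27.8 to 50.01 CPM), while Cd79a and Ms4a1 had 1 UMI each and Mzb1 had 0. All 5 T and NK markers and all 5 mast cell markers had 0 UMIs. The receptor kinase Kit, listed for globose basal cells, was detected in 132 members (57.1%) at 150 to 213 CPM, and in 57.0% of ionocyte-like barcodes. After thinning these shares were 35.2% and 26.5%. Cd24a, a surface glycoprotein, had 983 ± 138 CPM in tuft and 1739 ± 359 CPM in ionocyte-like sums (SD, n = 4).

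Of 16 apical and cytoskeletal genes, 3 outside the rule passed the fold. Espn, which bundles actin in microvilli, had 427, 616, 536 and 455 CPM against 57.0 to 63.3 CPM. The microvillar cadherin Cdhr5 had 31.8 ± 8.28 CPM (SD, n = 4), 125 to 256-fold above the others. Eps8, an actin capping protein, was 14.1 to 20.98-fold higher. After thinning, Eps8 was seen in 23.5% of members and 30.4% of ionocyte-like barcodes, Espn in 68.1% and 35.2%, and Cdhr5 in 7.51% and 0%. Villin (Vil1) and Ush1c, both found in intestinal microvilli, had 0 UMIs. Krt18 and Krt8, keratins of simple epithelia, were 2.50 to 3.25 and 3.46 to 4.07-fold higher, with Krt18 in sustentacular sums at 2660 ± 57.2 CPM against 3038 ± 342 CPM in tuft sums. Dclk1, a widely used marker of intestinal tuft cells, was at 98.6, 157, 59.1 and 63.1 CPM against 87.1 to 93.1 CPM and so overlapped with the other barcodes. Of 12 synaptic genes, of which 5 had at least 3 UMIs in each tuft sum, none passed the fold upward. At least 4-fold lower were 5, among them Snap25, Syt1 and Slc17a6, beside 5.02% over all genes. The list summed to 257 to 368 CPM in tuft, 209 to 222 CPM in sustentacular and 267 to 313 CPM in ionocyte-like sums. In mature neuron sums it was 1661 to 1761 CPM, so the low level was shared with the sustentacular and ionocyte-like classes.

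The members fell into 3 groups by clustering, and the summed CPM of the identity, transduction, acetylcholine, eicosanoid, cytokine, apical and cytoplasmic signalling lists were highest in group 1, the shallowest. Clusters are descriptions, with no test, and the resolution was set after the data were seen. Group 1 held 164 barcodes (33, 50, 51 and 30 in female 1, female 2, male 1 and male 2), group 2 held 36 (9, 9, 8 and 10) and group 3 held 31 (4, 10, 9 and 8). Their median depths were 3985.5, 15359.5 and 8267 UMIs, so that group 1, with 71.0% of barcodes, gave 41.5% of the tuft UMIs and group 2, with 15.6%, gave 37.0%. For the 25 genes of largest fold, the summed levels are therefore lower than those of group 1 alone. This need not hold for every gene named above. After thinning, a UMI of Il33 was seen in 7.04% of members and in 2.74% of group 1 barcodes. For Dclk1 these shares were 15.5% and 12.3%, and for Itpr3 they were 2.82% and 3.42%. Trpm5 was at 1319, 1310.4, 1354 and 1220 CPM in group 1 of the 4 libraries, at 306 ± 52.6 CPM in group 2 and at 393 ± 190 CPM in group 3 (SD, n = 4). Chat was at 237 ± 4.63, 39.5 ± 13.8 and 36.0 ± 16.8 CPM, and Alox5ap at 1700.5 ± 130, 483 ± 104 and 481 ± 241 CPM in groups 1, 2 and 3 (SD, n = 4). By library, group 1 held Chat at 242, 231, 236 and 238 CPM in female 1, female 2, male 1 and male 2. Over all members Chat was lowest in male 2.

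The rule used the 4 tuft markers and capped Omp and Cyp2g1, and a floor in UMIs asks for a higher CPM in a shallow barcode, so the levels of these genes in the groups describe the choice and do not check the label. In group 1 the 4 tuft markers summed to 2843 to 3512 CPM, against 12.2 to 14.4 CPM in the other barcodes. At least 3 of the 4 markers were held by 146 of its 164 barcodes and by 33 of the 36 barcodes of group 2. The eicosanoid list, which the rule did not use, summed to 5383 to 5668 CPM in group 1, 1603 to 2137 CPM in group 2 and 1530.3 to 2509 CPM in group 3, against 558 to 573 CPM in the other barcodes. Sustentacular markers (Cyp2g1, Cyp1a2, Ermn, Sec14l3 and Cyp2a5) in group 1 summed to 908 to 1266 CPM and mature neuron markers to 731 to 924 CPM. Both lie far below the sums in the barcodes they define, 54326 to 60325 CPM and at most 23750.4 CPM.

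Group 2 held markers of other epithelial cells beside the tuft genes. Its sustentacular markers summed to 16104 to 19389.8 CPM and its 4 tuft markers to 701 to 996 CPM. Leading genes included Serpinb11 and Cyp4b1, each in 33 of 36 barcodes, the secreted lectin Reg3g in 16, the invariant chain Cd74 in 22 and the class II genes H2-Ab1 and H2-Aa in 13 and 12. Of the Reg3g UMIs in the group, 64.2% came from 1 barcode. In female 1, female 2, male 1 and male 2, Cd74 was at 46.8, 2548, 202 and 2081 CPM. H2-Ab1 was at 0, 614, 32.4 and 626 CPM and H2-Aa at 0, 397, 16.2 and 454 CPM. Bpifa1, a secreted airway protein, had 5554 and 15832 UMIs in the tuft sums of female 1 and male 2, of which 98.5% and 92.1% came from 1 barcode each, and 227 and 172 UMIs in female 2 and male 1. A high doublet score was seen in 1 of the 36, beside 7.73% to 8.18% of all passing barcodes. Whether these barcodes hold 1 cell or more was not tested, and they are not given another cell type name.

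Group 3 was mixed. Leading genes were those of dividing cells, such as Ube2c, Mki67, Cenpf and Ccna2, but these came from 6 to 8 of the 31 barcodes. The 6 barcodes with over 10 UMIs of Mki67, Top2a and Cdk1 had 18051 to 34352 UMIs in all, 4 to 10 marker UMIs, and Il25 in 1. Penk and Olfr849, also leading genes, came from 1 barcode each. Markers of immature neurons summed to 748 to 2419 CPM, against 167 to 330 CPM in group 1. Of the 31 barcodes, 4 had a high doublet score, beside 7.73% to 8.18% of all passing barcodes. The part of these barcodes in the values of group 3 was not tested.

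**Figure D3:**
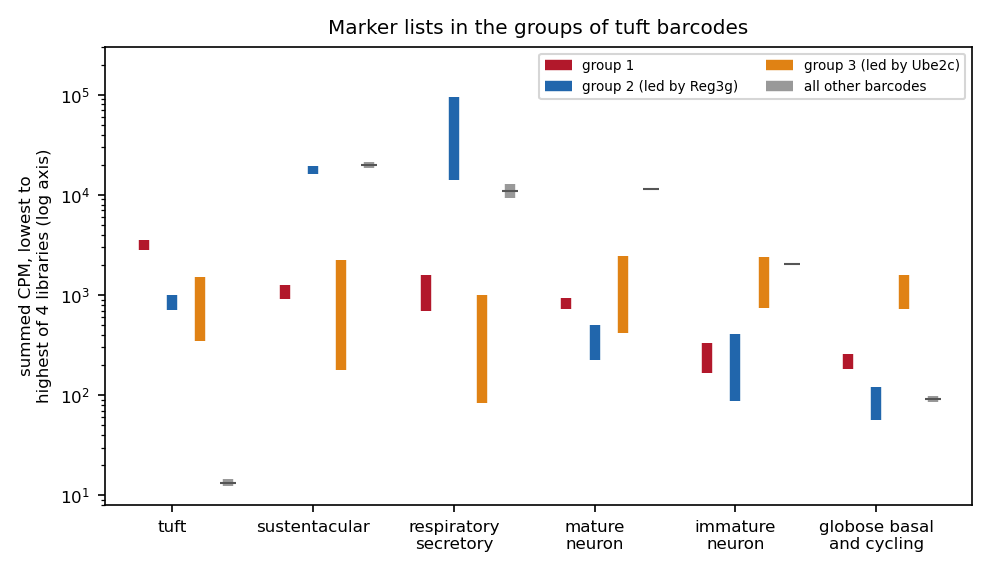
Bars run from the lowest to the highest of 4 libraries in the summed CPM (log axis) of 6 marker lists, for the 3 groups of tuft barcodes and for all other passing barcodes; the dash in the grey bar marks its centre. The tuft markers are highest in group 1 (2843 to 3512), and group 2 reaches 16104 to 19389.8 for the sustentacular list.

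Immediate early genes, which are switched on within minutes of a stimulus, varied within group 1. Over all members, Atf3 and Nr4a1 passed the fold (4.99 to 6.498 and 4.35 to 4.60-fold), while Fos was 1.503 to 2.43-fold and Dusp1 0.691 to 1.44-fold. At a finer resolution, 162 of the 164 barcodes of group 1 fell into 3 subgroups of 58, 57 and 47 barcodes, here 1a, 1b and 1c. Subgroup 1b was low in Fos, at 2233, 551, 388 and 279 CPM in female 1, female 2, male 1 and male 2, against 2972 to 6636 CPM in 1a and 2481 to 8122 CPM in 1c. Egr1 followed the same order, with 1444 ± 884 CPM in 1b, 6114 ± 1176 CPM in 1a and 7627 ± 2246 CPM in 1c (SD, n = 4). Within each library Fos and Egr1 were lowest in 1b, and over libraries 1b did not overlap with 1a or 1c.

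Il25 and Rgs13 also differed between these subgroups. Il25 was at 938, 914, 302 and 836 CPM in 1b, at 1944, 1494, 1486 and 3016 CPM in 1a, and at 1012, 1927, 790 and 2330 CPM in 1c, so that 1b was lowest in every library while its range overlapped that of 1c. Rgs13 was at 1689, 1398, 1414 and 1643 CPM in 1b, above 580 to 859 CPM in 1a and 487 to 996 CPM in 1c. Gnat3 was at 311 ± 74.8 CPM in 1b, 178 ± 56.0 in 1a and 138 ± 57.4 in 1c (SD, n = 4). Trpm5 was close in the 3 subgroups, at 1235 ± 90.8, 1340 ± 111 and 1298 ± 239 CPM in 1a, 1b and 1c (SD, n = 4). Median depths were 3924.5, 4414 and 4149 UMIs and median mitochondrial shares 2.12%, 3.33% and 2.70%. The part of RNA quality in these differences was not tested.

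**Figure D4:**
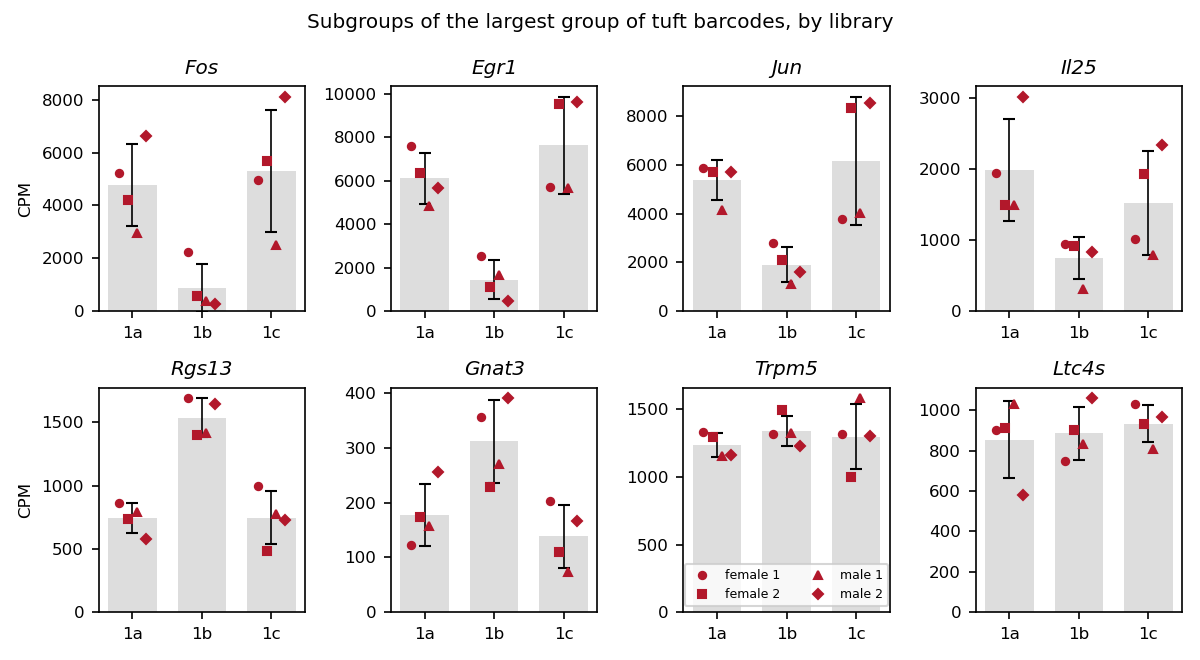
Points are the CPM of 8 genes in subgroups 1a, 1b and 1c of the largest group, 1 point per library, with bars at the mean of 4 libraries and error bars of 1 SD. Fos, Egr1 and Jun are lowest in 1b in each library, Rgs13 is highest there (1398 to 1689), and Trpm5 overlaps between the subgroups.

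Sex was the labelled contrast that the rule had not used. The summed tuft counts of 2 females and 2 males were compared with edgeR's quasi-likelihood test, and 2 of 7190 genes (0.0278%) passed a Benjamini-Hochberg adjusted p of 0.05, while 246 had an unadjusted p under 0.05. Both are genes of the Y chromosome and so check the sex labels. Eif2s3y, a translation initiation factor subunit, had 0 and 0 UMIs in the female and 41 and 35 in the male tuft sums (edgeR adjusted p = 0.00608). Ddx3y, an RNA helicase, had 0 and 0 against 29 and 20 UMIs (edgeR adjusted p = 0.0381), and its adjusted p by DESeq2 was 0.108.

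None of the 78 list genes tested passed, and 5 had an unadjusted p under 0.05. The lowest of these belonged to Dclk1, with 39 and 70 UMIs in females and 26 and 24 in males, a log2 fold of -0.998 ± 0.29 (SE) for males over females and an edgeR adjusted p of 0.9997. The log2 fold was 0.06 ± 0.20 (SE) for Trpm5, -0.18 ± 0.22 for Il25, 0.03 ± 0.26 for Chat and -0.29 ± 0.23 for Sox9. Medians of the lists ran from -0.25 for eicosanoids to 0.05 for immediate early genes among lists with at least 8 genes tested, beside 0.00 over all genes tested. In simulated sums of this size the test recovered 95% of 4-fold and 31% of 2-fold changes. It called 8 unchanged genes beside them over both fold sizes together. The changes were placed only in genes of higher mean count, and all genes were given the same dispersion. These shares therefore do not cover genes with fewer counts or a larger spread. Differences of 2-fold were often not detectable.

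Whether a sex difference was larger in tuft cells than in the other barcodes was tested as an interaction with library as a block, and 52 of 16133 genes passed (0.322%, edgeR), 39 with a more positive male effect in tuft sums and 13 with a more negative one. Single barcodes carried many of them. In 49 of the 52 genes 1 barcode held at least 25% of the tuft UMIs of the gene, and in 29 at least 50%. The gene of lowest p, the haemoglobin gene Hbb-bs, had 2, 14, 4089 and 6 UMIs in the tuft sums of female 1, female 2, male 1 and male 2, and 72.5% of those in male 1 came from 1 barcode. Cdkn1c, a cell cycle inhibitor, had 353, 41, 17 and 15 UMIs, 78.2% of them from 1 barcode. In group 1 alone 8 genes passed, and DESeq2 called 1. The model gave each gene 1 dispersion for the small tuft sums and the far larger other sums. Its p-values therefore do not measure the spread of the tuft sums alone.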

How the data were processed

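The data are 4 droplet libraries of 5′ single-cell RNA from mouse main olfactory epithelium. The files the authors deposited give unnormalized counts of UMIs for 22399 genes in every barcode. They were made with Cell Ranger 6.0.2 per the file headers, while the submitters' processing notes name Cell Ranger 5.0.1 and the build mm10. How barcodes were called as cells is not given in the sources used here. Gene positions are those of GENCODE M21 on GRCm38.

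The members and gene lists were chosen with earlier results of these data known. Barcodes were gated as described, and doublets were scored but kept. Counts were summed per library. Tuft sums against other barcodes carry no test, because the rule used that contrast. Sex was tested with edgeR 4.0.16 (quasi-likelihood, TMM, filterByExpr, Benjamini-Hochberg adjustment), with DESeq2 1.42.0 as an alternative, and checked on simulated data of 7164 genes. With 2 libraries a sex, p-values measure only the spread between these libraries, which may be technical. Members were clustered from 1000 variable genes, 15 principal components and 15 neighbours with Leiden (leidenalg 0.10.2) at resolution 0.6, and at resolution 1 for the subgroups. Doublet scores used 2 simulated doublets per barcode, 30 principal components and 50 neighbours, and the highest 0.8% per 1000 barcodes were called high. The genes named are the rule genes, list genes of highest level or that pass or go against their list, the 25 of largest and 5 of lowest fold, those past the sex test, and leading genes of clusters; other genes named were chosen after their values were seen. For 0 counts, a limit of 3 counts was used. Upstream windows from RefSeq (GRCm38.p6) were found for 16770 genes. Some list genes are counted with their list and are not reported here by name.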

Additional observations from a re-analysis of the deposited data

Results flagged for a closer look

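The erythroid markers summed to 10205 CPM in the tuft barcodes of male 1, against 7.59, 18.4 and 35.8 CPM in the other libraries, and male 1 lay apart by Dixon's criterion for 4 values. It was the only 1 of 29 library values checked to do so, where about 1 in 20 would by chance. Most of these UMIs were Hbb-bs, from 5 barcodes.

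The interaction test of sex between tuft sums and the other barcodes called 52 genes. Its p-values do not measure the spread of the tuft sums alone. Beside Hbb-bs and Cdkn1c, the genes of lowest p were Tff2, Rgs5, Vmo1 and Hbb-bt, whose highest barcode held 95.6%, 36.0%, 28.8% and 62.9% of the tuft UMIs.

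The 227 barcodes that met the marker part of the rule but exceeded a limit on Omp or Cyp2g1 were not used as members. They had a median of 11 marker UMIs, as the members did.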

How the results depend on the processing

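The difference in share by sex (males minus females) was 0.0118 percentage points and turned negative without the limits on Omp and Cyp2g1 (-0.0379) and in the largest group alone (-0.0047); leaving out 1 library gave -0.117 to 0.140. The genes at least 4-fold higher numbered 289, and 180 against other barcodes under the same limits; with the largest group alone the genes at least 4-fold lower rose from 493 to 915, and the other counts stayed within 1.5 times. The largest group alone raised the median log2 fold of all 25 genes of largest fold by 0.61 to 1.03, and the reference under the same limits changed it by -1.08 to 1.41, higher for 14 genes and lower for 11. Without 1 library the counts were 298 to 338 and 536 to 601. Members formed 3 groups, and 5 at resolution 1.

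The sex test called 2 genes, 1 by DESeq2, without barcodes of highest doublet score or with at least 6 marker UMIs, 65 with no filter on low counts, 4 without the group led by Reg3g, and 4 to 91 when 1 library was left out (91 without male 1, 47 without male 2). The arm with 1 library is then assumed to vary like the other. Ddx3y missed the threshold in 6 of the settings. With the replicate number as a block 10 genes passed. The deviations of female 1 and male 1 had a correlation of -0.158 over 5515 genes. With 2 libraries a sex, this value cannot tell whether libraries of the same number were handled together. With the numbers crossed 4 genes passed. The interaction test called 52 genes, 1 by DESeq2, 32 without barcodes of highest doublet score, 8 in the largest group and 26 without the group led by Reg3g, and 41 to 68 when 1 library was left out. The settings with groups, a crossed block, the reference without marker-positive barcodes and resolution 1 were chosen after seeing the data. The cause of these changes was not tested. Small tuft sums of 380492 to 446584 UMIs per library limit what can be detected.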
